A study of Mus musculus with 17 samples.

Results

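The genes described here are 10 genes that mark mast cells, measured by RNA-seq in mouse erythroid blasts. They were taken by gene name from the deposited count tables and comprise the subunits of the high-affinity IgE receptor (Ms4a2, Fcer1a and Fcer1g), 4 granule proteases and the enzyme of histamine synthesis (Cpa3, Tpsb2, Cma1, Mcpt4 and Hdc) and 2 transcription factors (Gata2 and Mitf). All 10 genes were found, among 26029 genes in the table of model 1 and 24659 genes in that of model 2. Expression is given as CPM, the read count of a gene relative to the size of its library after TMM scaling with edgeR.

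All mice carried the Spi1 transgene, which encodes the haematopoietic transcription factor SPI1 and causes an erythroid blast disease. Model 1 (strain DBA2JxFVB/N) held 4 preleukaemic TgSpi1FA+/+ mice with wild-type Fanca (preleukemic_138, preleukemic_445, preleukemic_451 and preleukemic_479), 3 preleukaemic TgSpi1FA-/- mice without Fanca (preleukemic_40, preleukemic_77 and preleukemic_224) and 3 leukaemic TgSpi1FA-/- mice (leukemic_26, leukemic_28 and leukemic_39). Model 2 (strain background DBA2J, wild-type Fanca) held 4 preleukaemic mice (preleukemic_633, preleukemic_663, preleukemic_812 and preleukemic_837) and 3 leukaemic mice (leukemic_601, leukemic_606 and leukemic_921), and in this model the leukaemic cells had arisen after repeated blood transfusions. Preleukaemic blasts need erythropoietin (EPO) for growth and do not form tumours, and all blasts were kept in culture with EPO, so that each of the 17 libraries came from the cultured cells of 1 mouse. Ages were not given in the sources used here. The protocol used 400 ng RNA and 8 min fragmentation for model 1, but 300 ng and 2 min for model 2, so that model, strain, library protocol, the transfusions and, for leukaemic mice, the Fanca genotype cannot be told apart.

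Mast cells arise from haematopoietic progenitors under the control of KIT and its ligand, and they store proteases and histamine in granules. The IgE receptor on their surface consists of an alpha chain that binds IgE, a beta chain that amplifies the signal, and a gamma chain that carries the signal and is also used by other Fc receptors. GATA2 and MITF take part in the control of mast cell genes, and GATA2 is also found in early haematopoietic and erythroid progenitors, where GATA1 replaces it during maturation.

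Sequencing depth, as summed counts, ranged from 29964576 to 38217654 reads for model 1 and from 37726753 to 40514205 for model 2. Fanca was between 0.615 and 2.30 CPM in the 6 TgSpi1FA-/- libraries and between 28.2 and 83.5 CPM in the 4 TgSpi1FA+/+ libraries of model 1, as the labels say. Spi1 was at least 467 CPM in all preleukaemic libraries of model 1 and at 629.9 CPM in leukemic_26, 219.7 CPM in leukemic_28 and 3.88 CPM in leukemic_39. The level in leukemic_39 goes against the Spi1 transgene of its label, and this library also stood apart with 0.0507 CPM of Srgn, a granule proteoglycan core protein, and 0.837 CPM of the beta globin Hbb-bs. Fold changes of Ms4a2, Fcer1a and Gata2 in TgSpi1FA-/- leukaemic cells are given with and without leukemic_39. Those of the other members are given with it, unless a range with each mouse left out is named. Of 16 genes of the other lists described below that were called in TgSpi1FA-/- leukaemic against TgSpi1FA-/- preleukaemic cells, 12 were still called without leukemic_39, an alternative chosen after the data had been seen. The other 4 were Fcgr2b (adjusted p = 0.0745, edgeR), Lmo2 (adjusted p = 0.0860, edgeR), Vwf (adjusted p = 0.0791, edgeR) and Zeb2 (adjusted p = 0.0838, edgeR), and 5.16% of all genes were called without it. The mice preleukemic_40, preleukemic_77 and preleukemic_224 are leukaemic by the column names and by 1 field of their records and preleukaemic by their titles and another field, and the titles were followed. The libraries of preleukemic_445 and preleukemic_479 were far more alike (chi-square per degree of freedom of 9.18) than any other pair of the same group in that table (126 to 411), although they still differed by more than sampling noise, and results of their group are given with both. Erythroid markers summed to between 2241 and 10741 CPM in the 17 libraries.

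The 250 bases upstream of the RefSeq start (GRCm38.p6, sequence of the gene's own strand, written 5′ to 3′) are shown for Ms4a2, Cpa3 and Cma1, the measurable members whose levels did not overlap between the groups of model 2, and for Fcer1a, the partner of Ms4a2 whose levels did overlap. Capitals mark the GATA motifs AGATAA and TGATAA, or their reverse complements TTATCT and TTATCA.

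Ms4a2 (chr19:11623720-11623969, minus strand): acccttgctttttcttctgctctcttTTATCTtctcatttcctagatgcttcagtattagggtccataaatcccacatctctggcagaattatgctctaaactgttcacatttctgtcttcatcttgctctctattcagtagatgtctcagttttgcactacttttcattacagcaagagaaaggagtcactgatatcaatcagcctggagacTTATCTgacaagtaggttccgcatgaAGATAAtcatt
Cpa3 (chr3:20242182-20242431, minus strand): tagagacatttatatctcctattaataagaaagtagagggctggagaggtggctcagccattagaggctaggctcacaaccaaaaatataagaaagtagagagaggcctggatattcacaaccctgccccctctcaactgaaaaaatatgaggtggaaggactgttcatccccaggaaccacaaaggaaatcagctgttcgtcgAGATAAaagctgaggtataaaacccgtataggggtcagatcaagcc
Cma1 (chr14:55944676-55944925, minus strand): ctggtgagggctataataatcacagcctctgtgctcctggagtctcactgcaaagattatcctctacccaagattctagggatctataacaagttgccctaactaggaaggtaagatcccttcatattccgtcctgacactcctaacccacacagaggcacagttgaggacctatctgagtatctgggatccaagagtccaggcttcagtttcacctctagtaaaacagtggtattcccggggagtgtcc
Fcer1a (chr1:173227230-173227479, minus strand): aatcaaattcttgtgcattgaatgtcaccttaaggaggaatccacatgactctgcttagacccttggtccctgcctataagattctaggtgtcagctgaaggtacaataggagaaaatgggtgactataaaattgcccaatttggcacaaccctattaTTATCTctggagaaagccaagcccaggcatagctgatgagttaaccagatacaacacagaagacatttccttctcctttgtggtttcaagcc

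The window of Ms4a2 held 3 matches to AGATAA on either strand, of which those nearest to the start of the gene began 37 and 11 bases before it. The windows of Cpa3 and Fcer1a held 1 match each, 46 and 92 bases before the start, and none of these letters was found in the window of Cma1. Of the 10 genes, 9 were matched to a start in RefSeq, with 12 windows in all, and 6 windows of 5 genes (also Mcpt4 and Mitf) held AGATAA or TGATAA. The same letters were found in 16.6% of 32851 windows of that length over all genes. A match is a description of the letters and was not tested for binding.

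The 10 genes differed widely in their levels (plot of the 10 genes by library). Hdc and Gata2 were above 1 CPM in all 17 libraries, Fcer1a in 15, Ms4a2 in 10 and Mitf in 9. Cpa3 and Mcpt4 were above 1 CPM in 5 libraries each, Cma1 in 3, and Fcer1g and Tpsb2 in 0. The number of the 10 genes above 1 CPM was 4 to 5 in TgSpi1FA+/+ preleukaemic, 3 to 5 in TgSpi1FA-/- preleukaemic and 2 to 3 in TgSpi1FA-/- leukaemic libraries of model 1. For model 2, it was 4 to 6 in the preleukaemic mice and 7 to 8 in the leukaemic mice. Those tables were scaled separately, and levels of model 1 and model 2 are set side by side without a test unless one is named. In cultures measured in bulk, fewer cells of a type and less RNA per cell cannot be told apart.

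**Figure D1:**
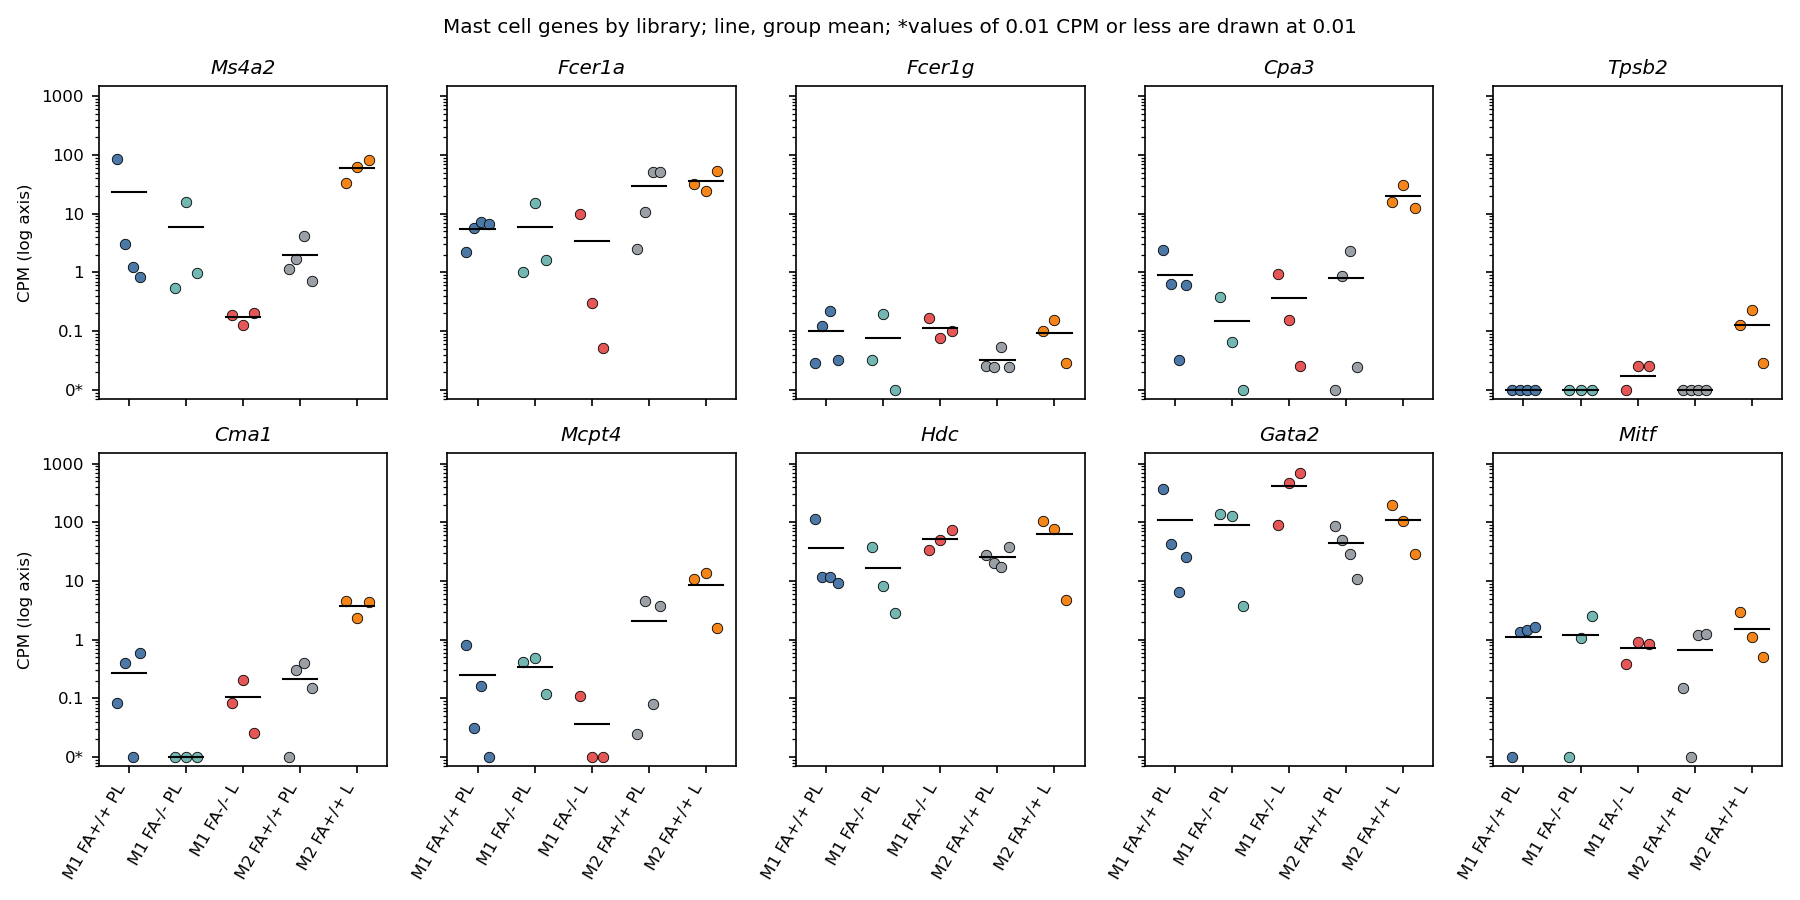
CPM (log axis) of each of the 10 mast cell genes in the 17 libraries, by model (M1, M2), genotype and stage (PL, preleukaemic; L, leukaemic). Points are libraries, lines are group means, and values of 0.01 CPM or less are drawn at 0.01. Ms4a2, Cpa3 and Cma1 lie higher in all 3 leukaemic libraries of model 2 than in the 4 preleukaemic ones, Ms4a2 is lowest in the 3 TgSpi1FA-/- leukaemic libraries, and Fcer1g and Tpsb2 stay under 1 CPM throughout.

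Ms4a2 encodes the beta chain of the IgE receptor (gene on chromosome 19, 11615523 to 11623719, minus strand, GRCm38). In model 2, it was at 1.16 CPM in preleukemic_633, 1.70 in preleukemic_663, 4.24 in preleukemic_812 and 0.717 in preleukemic_837 of the preleukaemic mice. In the leukaemic mice it was at 34.1 CPM in leukemic_601, 62.1 in leukemic_606 and 83.4 in leukemic_921. The lowest leukaemic library was above the highest preleukaemic one, with a mean of 59.8 CPM ± 24.7 (SD, n = 3) against 1.95 ± 1.58 (SD, n = 4). The log2 fold change (leukaemic minus preleukaemic) was 4.94 with a standard error of 0.67, and the adjusted p of edgeR over all genes was 0.162. In model 2, edgeR called 0.00% of the 12970 genes tested, where a call needed an adjusted p under 0.05 together with a change of 1.5-fold or more, and 0.162 was the smallest adjusted p of any gene. With the Wald test of DESeq2, which called 3.96% of the genes with an adjusted p, the adjusted p of Ms4a2 was 3.12e-11.

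In model 1, Ms4a2 lay on the other side. It was at 0.192 CPM in leukemic_26, 0.128 in leukemic_28 and 0.203 in leukemic_39 of the TgSpi1FA-/- leukaemic mice, which are 5 to 8 reads per library. The TgSpi1FA-/- preleukaemic mice preleukemic_40, preleukemic_77 and preleukemic_224 had 0.550, 16.1 and 0.994 CPM, and the TgSpi1FA+/+ preleukaemic mice preleukemic_138, preleukemic_445, preleukemic_451 and preleukemic_479 had 87.3, 3.09, 1.25 and 0.825 CPM. All 3 leukaemic libraries were thus below all 7 preleukaemic ones, while preleukemic_77 and preleukemic_138 stood far above the other preleukaemic mice. The log2 fold change of TgSpi1FA-/- leukaemic against TgSpi1FA-/- preleukaemic cells was -5.05 (SE 2.13, adjusted p = 0.135, edgeR), and it was -2.12 without preleukemic_77 and -5.14 without leukemic_39. Against TgSpi1FA+/+ preleukaemic cells it was -7.02 (SE 2.28, adjusted p = 0.0874, edgeR), and -3.28 without preleukemic_138 and -7.13 without leukemic_39. It was -7.39 without preleukemic_445 and -7.43 without preleukemic_479. Neither difference passed the threshold, and DESeq2 gave no adjusted p for Ms4a2 in model 1.

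Both leukaemic changes were then compared with each other, by an interaction term over the 17 libraries. The change of Ms4a2 in model 1 minus that in model 2 was -10.01 on the log2 scale (SE 2.39, adjusted p = 0.0369, edgeR), where 4.61% of 14597 genes were called and 1.85% were called lower. Ms4a2 was the only one of the 8 members tested that was called. DESeq2, which called 12.9% of the genes with an adjusted p, called it too, with an adjusted p of 9.15e-06. The call of edgeR was kept when preleukemic_663, preleukemic_812 or preleukemic_837 was left out. It was lost when any of leukemic_26, leukemic_28, leukemic_39, preleukemic_40, preleukemic_77, preleukemic_224, preleukemic_633, leukemic_601, leukemic_606 or leukemic_921 was left out, with adjusted p between 0.0512 and 0.0967 and differences between -10.55 and -7.07, the latter without preleukemic_77. Without leukemic_39 the difference was -10.13 (adjusted p = 0.0892, edgeR). The genotype of the leukaemic mice (TgSpi1FA-/- or TgSpi1FA+/+), the strain, the library protocol and the transfusions cannot be told apart from the model in this difference. The part of the Kit and Nras mutations of the leukaemic cells was not tested.

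Fcer1a, the alpha chain that binds IgE (chromosome 1, 173221284 to 173227214, minus strand), overlapped between the stages in both models. In model 2, it was at 2.55 CPM in preleukemic_633, 10.7 in preleukemic_663, 52.1 in preleukemic_812 and 52.0 in preleukemic_837 of the preleukaemic mice and at 32.7 in leukemic_601, 24.5 in leukemic_606 and 52.6 in leukemic_921 of the leukaemic mice. Both groups overlapped, with 2 preleukaemic libraries nearly as high as the highest leukaemic one, and the log2 fold change was 0.32 (SE 0.89, adjusted p = 0.871, edgeR). In model 1, Fcer1a was between 2.24 and 7.27 CPM in the 4 TgSpi1FA+/+ preleukaemic libraries. It was at 1.003 CPM in preleukemic_40, 15.4 in preleukemic_77 and 1.64 in preleukemic_224, and at 9.97 in leukemic_26, 0.307 in leukemic_28 and 0.0507 in leukemic_39 of the leukaemic mice. The leukaemic libraries therefore held both a high and a nearly silent level, and the log2 fold change against TgSpi1FA-/- preleukaemic cells was -0.80 (SE 1.55, adjusted p = 0.763, edgeR) and turned to 1.41 without preleukemic_77. Without leukemic_39 it was -0.19 (adjusted p = 0.952, edgeR). Mouse preleukemic_77 had the highest Ms4a2 and the highest Fcer1a of its group.

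Fcer1g, the gamma chain, was counted with at most 7 reads in any library (0 to 0.224 CPM) and did not pass the filter on low counts in either model. A count of 3 in a library corresponds to 0.0852 CPM in preleukemic_138 and 0.0970 CPM in preleukemic_40. Fcer1g was therefore near this floor also in the 3 leukaemic libraries of model 2, where the other subunits were at 24.5 CPM or more, at 0.103 CPM in leukemic_601, 0.152 in leukemic_606 and 0.0284 in leukemic_921.

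Among the granule proteases, Cpa3 (mast cell carboxypeptidase A, chromosome 3, 20215620 to 20242181, minus strand) had the pattern of Ms4a2 in model 2. It was at 0 CPM in preleukemic_633, 0.875 in preleukemic_663, 2.32 in preleukemic_812 and 0.0247 in preleukemic_837 of the preleukaemic mice and at 15.6 in leukemic_601, 31.4 in leukemic_606 and 12.6 in leukemic_921 of the leukaemic mice. The groups did not overlap, and the means were 19.9 CPM ± 10.1 (SD, n = 3) against 0.805 ± 1.09 (SD, n = 4). The log2 fold change was 4.62 (SE 1.54, adjusted p = 0.180 with edgeR and 0.0890 with DESeq2), so that it was not called with either test. Cpa3 stayed at or below 2.41 CPM in all 10 libraries of model 1. There, it was at 0.932 CPM in leukemic_26, 0.153 in leukemic_28 and 0.0254 in leukemic_39 of the leukaemic mice and at 0.388, 0.0657 and 0 CPM in preleukemic_40, preleukemic_77 and preleukemic_224, and the groups overlapped (log2 fold change 1.28, SE 1.61, adjusted p = 0.624, edgeR).

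Cma1 (mast cell chymase 1, chromosome 14, 55941451 to 55944675, minus strand) was at 0 CPM in preleukemic_633, 0.2999 in preleukemic_663, 0.400 in preleukemic_812 and 0.148 in preleukemic_837 of the preleukaemic mice of model 2. It was at 4.49 CPM in leukemic_601, 2.39 in leukemic_606 and 4.43 in leukemic_921 of the leukaemic mice. The lowest leukaemic level was thus several times the highest preleukaemic one, with a log2 fold change of 4.13 (SE 1.04, adjusted p = 0.162, edgeR). DESeq2 called it with an adjusted p of 0.000271. In model 1, Cma1 was counted with at most 19 reads per library and did not pass the filter. Its 3 TgSpi1FA-/- preleukaemic libraries had 0 reads and its leukaemic ones 3 reads in leukemic_26, 8 in leukemic_28 and 1 in leukemic_39, a mean at least 1.10-fold above 3 counts per library.

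Mcpt4 encodes a further chymase of connective tissue mast cells and lies near Cma1 (chromosome 14, 56059629 to 56062313, minus strand). In model 2, it was at 0.0252 CPM in preleukemic_633, 4.60 in preleukemic_663, 0.0800 in preleukemic_812 and 3.71 in preleukemic_837 of the preleukaemic mice and at 10.9 in leukemic_601, 13.5 in leukemic_606 and 1.56 in leukemic_921 of the leukaemic mice. The level in leukemic_921 lay within the preleukaemic range, and the log2 fold change was 2.04 (SE 1.497, adjusted p = 0.483, edgeR). In model 1, it was at 0.110 CPM in leukemic_26 and 0 in leukemic_28 and leukemic_39 of the leukaemic mice and at 0.421 in preleukemic_40, 0.492 in preleukemic_77 and 0.117 in preleukemic_224 of the TgSpi1FA-/- preleukaemic mice. These groups did not overlap, but they rest on at most 15 reads per library (log2 fold change -3.14, SE 1.68, adjusted p = 0.226, edgeR). Tpsb2, a tryptase, had 0 reads in 12 of 17 libraries and at most 9 reads in any. In model 2, all 4 preleukaemic libraries had 0 reads, and the leukaemic ones had 5 in leukemic_601, 9 in leukemic_606 and 1 in leukemic_921, a mean at least 1.68-fold above 3 counts per library.

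Hdc, the histidine decarboxylase that makes histamine (chromosome 2, 126593667 to 126619299, minus strand), was expressed in every group. In model 2, it was between 17.1 and 38.4 CPM in the preleukaemic libraries and at 107 CPM in leukemic_601, 76.7 in leukemic_606 and 4.68 in leukemic_921 of the leukaemic ones. Mouse leukemic_921 had the lowest Hdc of model 2 and the highest Ms4a2. The log2 fold change was 1.29 (SE 0.81, adjusted p = 0.410, edgeR). In model 1, Hdc was at 33.8 CPM in leukemic_26, 49.5 in leukemic_28 and 73.3 in leukemic_39 of the leukaemic mice and at 38.3 in preleukemic_40, 8.17 in preleukemic_77 and 2.89 in preleukemic_224 of the TgSpi1FA-/- preleukaemic mice. The groups overlapped only through preleukemic_40, and the log2 fold change was 1.66 (SE 1.17, adjusted p = 0.357, edgeR).

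Gata2 (chromosome 6, 88193891 to 88207032, plus strand) reached the highest CPM of the 10 genes. In model 1, it was at 89.4 CPM in leukemic_26, 464 in leukemic_28 and 690 in leukemic_39 of the leukaemic mice and at 139 in preleukemic_40, 128 in preleukemic_77 and 3.77 in preleukemic_224 of the TgSpi1FA-/- preleukaemic mice. The TgSpi1FA+/+ preleukaemic mice preleukemic_138, preleukemic_445, preleukemic_451 and preleukemic_479 had 365, 42.8, 6.41 and 25.99 CPM. Levels in leukemic_28 and leukemic_39 were above those of all preleukaemic libraries, whereas leukemic_26 lay among them, and the log2 fold change against TgSpi1FA-/- preleukaemic cells was 2.20 (SE 1.54, adjusted p = 0.359, edgeR) and 1.63 without leukemic_39. Within the leukaemic mice of model 1, the mouse with the lowest Gata2 (leukemic_26) had the highest Fcer1a, Fcer1g, Cpa3 and Mcpt4, where Mcpt4 rests on 4 reads. The same mouse had the lowest Hdc and Mitf, and its Ms4a2 and Cma1 lay between those of leukemic_28 and leukemic_39. In model 2, Gata2 was at 87.0 CPM in preleukemic_633, 50.03 in preleukemic_663, 28.9 in preleukemic_812 and 10.8 in preleukemic_837 and at 200 in leukemic_601, 104 in leukemic_606 and 28.4 in leukemic_921, with a log2 fold change of 1.32 (SE 0.77, adjusted p = 0.371, edgeR).

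Mitf, a transcription factor of mast cells and melanocytes (chromosome 6, 97807052 to 98021349, plus strand), was low in all groups, at 2.92 CPM or less. It had 0 reads in preleukemic_138, preleukemic_40 and preleukemic_663, where a count of 3 corresponds to 0.0852, 0.0970 and 0.0750 CPM, whereas the other TgSpi1FA+/+ preleukaemic mice of model 1 had 1.37, 1.65 and 1.44 CPM in preleukemic_445, preleukemic_479 and preleukemic_451. The 0 in preleukemic_138 stood beside the highest Ms4a2 of the 17 libraries. The leukaemic mice had 0.384 to 0.920 CPM in model 1 and 0.511 to 2.92 CPM in model 2, and the log2 fold changes were -0.75 (SE 1.52, adjusted p = 0.774, edgeR) in model 1 and 1.19 (SE 1.29, adjusted p = 0.640, edgeR) in model 2.

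Per kilobase of exon, Gata2 was the highest of the 10 genes in 9 libraries and Fcer1a in 8. In leukaemic cells of model 2, the mean level per kilobase was 36.7 CPM for Fcer1a, 21.3 for Ms4a2, 20.5 for Gata2, 13.1 for Cpa3, 9.82 for Hdc, 7.81 for Mcpt4 and 3.46 for Cma1. It was 0.244 CPM per kilobase for Mitf, 0.108 for Fcer1g and 0.0805 for Tpsb2. Each gene overlapped over the 3 libraries with the next in this order, except Cma1, whose lowest level per kilobase (2.19 CPM) was above the highest of Mitf (0.472 CPM).

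**Figure D2:**
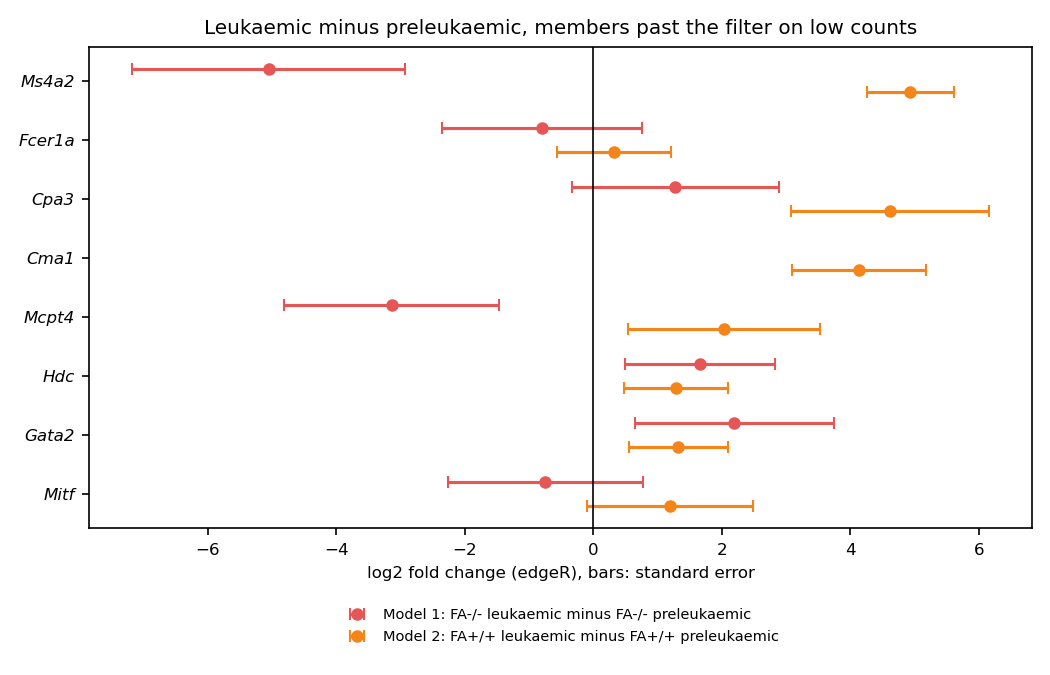
Log2 fold change of leukaemic against preleukaemic cells (edgeR) for the members past the filter on low counts, in model 1 (red, TgSpi1FA-/-) and model 2 (orange, TgSpi1FA+/+). Points are estimates and bars are standard errors. Ms4a2 lies at -5.05 in model 1 and 4.94 in model 2, Cpa3 and Cma1 lie at 4.62 and 4.13 in model 2, and no single change passed the threshold of edgeR.

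Over the whole list, 7 of the 10 genes passed the filter on low counts in model 1 (all but Fcer1g, Tpsb2 and Cma1) and 8 in model 2 (all but Fcer1g and Tpsb2). For TgSpi1FA-/- leukaemic against TgSpi1FA-/- preleukaemic cells, 0 of 7 were called by edgeR, while 13.3% of 13393 genes were called (6.82% higher and 6.49% lower). An unadjusted p under 0.05 was found for 1 member (Ms4a2), against 32.4% of all genes, and DESeq2 called 0 members, against 19.0%. Of all 10 genes, 2 lay lower without overlap (Ms4a2 and Mcpt4) and 1 higher (Cma1), against 19.3% lower, 19.4% higher and 38.7% either way of all genes tested. Of the 7 members tested, 2 lay lower and 0 higher without overlap. The median log2 fold change was -0.75 over the 7 members and -0.00 over all genes tested. The exact permutation test of 3 against 3 libraries cannot go below 0.1. Without leukemic_26, 7 of the 10 genes did not overlap, and without preleukemic_40 it was 5.

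For the loss of Fanca in preleukaemic cells (TgSpi1FA-/- against TgSpi1FA+/+), 0 of 7 members were called by edgeR, where 0.00747% of all genes were called (0.00% higher and 0.00747% lower). An unadjusted p under 0.05 was found for 0 members, against 8.65% of all genes, and DESeq2 called 0, against 1.61%. Of the 10 genes, 0 lay without overlap, against 8.53% of all genes tested (4.26% higher and 4.27% lower). Cpa3 was at 0.151 CPM ± 0.208 (SD, n = 3) against 0.918 ± 1.03 (SD, n = 4), with a log2 fold change of -2.59 (SE 1.58, adjusted p = 0.684, edgeR). The fold changes of the other 6 members tested lay between -1.97 for Ms4a2 and 0.41 for Mcpt4. That of Ms4a2 was -2.34 without preleukemic_445, -2.38 without preleukemic_479 and 1.77 without preleukemic_138.

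For TgSpi1FA-/- leukaemic against TgSpi1FA+/+ preleukaemic cells, 0 of 7 members were called by edgeR, where 7.01% of all genes were called (3.55% higher and 3.46% lower). An unadjusted p under 0.05 was found for 1 member (Ms4a2), against 27.2% of all genes, and DESeq2 called 0, against 14.8%. Of the 10 genes, Ms4a2 alone lay without overlap, below the preleukaemic libraries, against 12.9% lower, 12.8% higher and 25.7% either way of all genes tested. Without leukemic_26 or without preleukemic_138, 4 of the 10 genes did not overlap. This comparison and the previous ones share libraries.

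In model 2, 3 of the 8 members tested had an unadjusted p under 0.05, namely Ms4a2, Cma1 and Cpa3, against 19.9% of all genes. DESeq2 called 2 members, Ms4a2 and Cma1. Of all 10 genes, 4 lay higher in leukaemic cells without overlap (Ms4a2, Cpa3, Cma1 and Tpsb2) and 0 lower, against 9.65% higher, 10.4% lower and 20.1% either way of all genes tested. Each of these 4 had an exact permutation p of 0.0571, which is the smallest that 3 against 4 libraries can give. Groups without overlap always give this value, so that it adds nothing to the count. Of the 8 members tested, 3 lay higher and 0 lower without overlap. Tpsb2 was not tested and rests on 1 read in leukemic_921, under the floor of 3 counts. The median log2 fold change was 1.68 over the 8 members tested and -0.03 over all genes. Some members, Cma1 and Cpa3 among them, passed the filter on low counts only with the leukaemic libraries, where they were high. The counts and the median of the tested members are thus in part set by the filter and are a description. Without leukemic_921, 8 of the 10 genes did not overlap. That library had the highest Ms4a2 and the lowest Cpa3, Mcpt4, Hdc, Gata2 and Mitf of the leukaemic mice of model 2.

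A second deposited table held other counts of 7 of the mice of model 1, and it gave some of these genes other levels (plot of both tables). There, Ms4a2 was at 1.503 CPM in leukemic_26, 1.10 in leukemic_28 and 0.109 in leukemic_39 of the TgSpi1FA-/- leukaemic mice. It was at 20.4 CPM in preleukemic_138, 3.45 in preleukemic_445, 19.7 in preleukemic_451 and 15.7 in preleukemic_479 of the TgSpi1FA+/+ preleukaemic mice. The groups again did not overlap, with a log2 fold change of -4.01 (SE 1.01, adjusted p = 0.103, edgeR). Mice preleukemic_451 and preleukemic_479 were thus at 1.25 and 0.825 CPM in one table and at 19.7 and 15.7 CPM in the other. In this second table preleukemic_445 and preleukemic_479 were again the most alike pair of the same group (chi-square per degree of freedom of 390). They stood apart less there, with 438 for preleukemic_445 and preleukemic_451. This value grows with depth, which differed between both tables, so that 390 and 9.18 cannot be compared directly.

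Gata2 kept the order of its highest mice in the second table, with 442 CPM in leukemic_39, 404 in leukemic_28 and 196 in preleukemic_138, but preleukemic_445 had 0.546 CPM where the first table gave 42.8. Mitf was at 0 in preleukemic_138 in both tables. Fcer1g, at 0.205 to 0.718 CPM, passed the filter there (log2 fold change 0.84, SE 0.51, adjusted p = 0.414, edgeR). The fold change of Cpa3 was 1.99 in the second table against -1.31 in the first, and that of Mitf was 0.75 against -0.64. Which of both sets of counts is nearer to the cells was not tested.

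**Figure D3:**
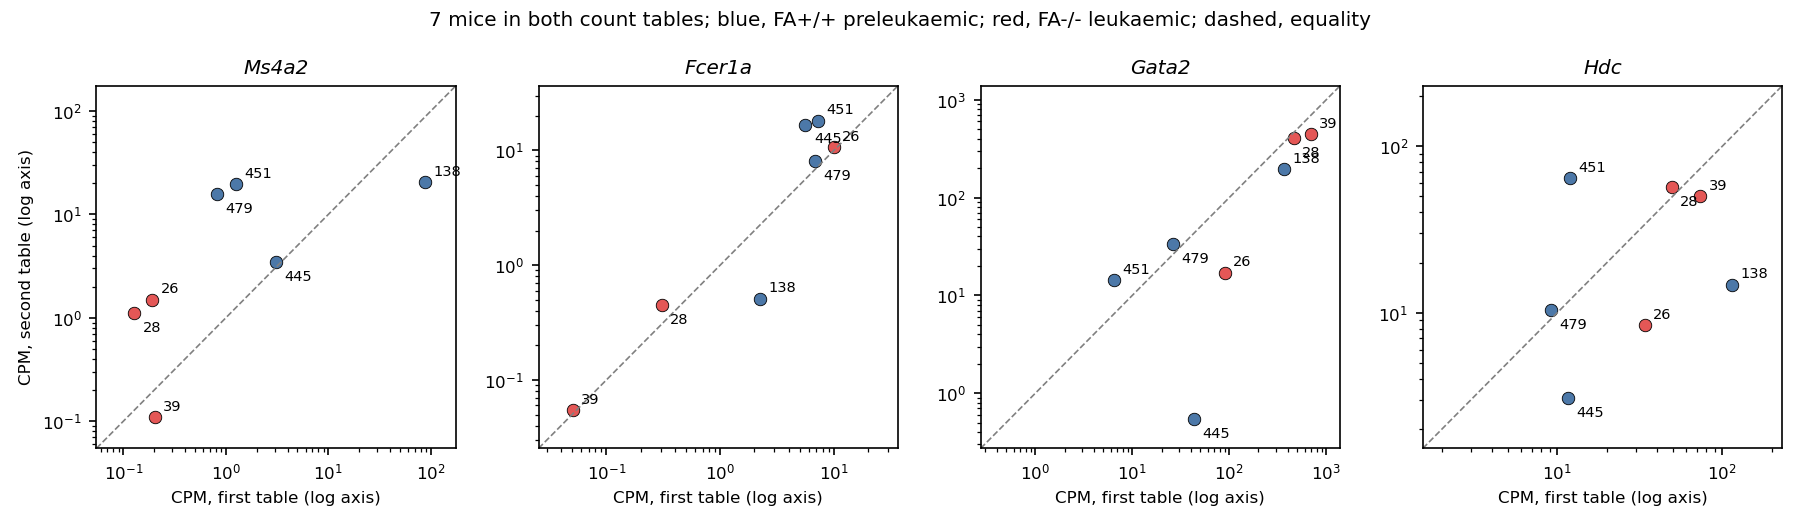
CPM in the first table (x axis, log) and in the second table (y axis, log) of Ms4a2, Fcer1a, Gata2 and Hdc for the 7 mice of model 1 that occur in both. Points are libraries, named by the number of the mouse (blue, TgSpi1FA+/+ preleukaemic; red, TgSpi1FA-/- leukaemic) and the dashed line is equality. Ms4a2 of preleukemic_451 and preleukemic_479 lies far above the line and Gata2 of preleukemic_445 far below it.

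Other genes of mast cells were present in the blasts. Kit, the receptor of the mast cell growth factor, was between 42.7 and 811 CPM in the 17 libraries and was not called in any comparison. Of 26 other mast cell genes, 17 were tested in model 1, and 2 rose in TgSpi1FA-/- leukaemic against TgSpi1FA-/- preleukaemic cells while 0 fell, where 13.3% of all genes were called (6.82% higher and 6.49% lower). Tph1, the enzyme that starts serotonin synthesis, was at 61.7 CPM in leukemic_26, 2.91 in leukemic_28 and 1.07 in leukemic_39 against 0.841, 0.197 and 0.0585 CPM in preleukemic_40, preleukemic_77 and preleukemic_224 (log2 fold change 5.90, SE 1.70, adjusted p = 0.0481, edgeR). Ptgs1, a cyclooxygenase of prostaglandin synthesis, was at 3.15 CPM ± 1.03 against 0.114 ± 0.0715 (SD, n = 3 each), with a log2 fold change of 4.74 (SE 0.91, adjusted p = 0.0161, edgeR). Between the preleukaemic groups, against TgSpi1FA+/+ preleukaemic cells and in model 2, edgeR called 0 of these genes, where 3, 4 and 1 had an unadjusted p under 0.05 (against 8.65%, 27.2% and 19.9% of all genes) and DESeq2 called 2, 3 and 1 (against 1.61%, 14.8% and 3.96%). Against TgSpi1FA+/+ preleukaemic cells, the log2 fold change was 2.61 for Tph1 (SE 1.30, adjusted p = 0.229, edgeR) and 1.83 for Ptgs1 (SE 0.71, adjusted p = 0.136, edgeR). Ptgs1 was called in the interaction (difference 6.72, SE 1.36, adjusted p = 0.0292, edgeR).

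In model 2, 14 of the 26 genes were tested, of which 11 were fitted higher and 3 lower in leukaemic cells. The median log2 fold change was 0.71, against -0.03 over all genes, a description that the filter on low counts can in part set. Slc18a2, which was chosen after its values had been seen, had the largest (3.89, SE 1.69, adjusted p = 0.252, edgeR), and its groups overlapped. Its leukaemic mean of 67.6 CPM ± 100 (SD, n = 3) rested mainly on a single library at 182.9 CPM. Gzmb, a granzyme, had the highest mean CPM of this list, at 1304 CPM in leukemic_601, 325 in leukemic_606 and 2.38 in leukemic_921 of the leukaemic mice and at 0.454 in preleukemic_633, 19.5 in preleukemic_663, 3398 in preleukemic_812 and 231.7 in preleukemic_837 of the preleukaemic mice. The preleukaemic group held both the lowest and the highest level, and the groups overlapped (log2 fold change -0.75, SE 2.30, adjusted p = 0.885, edgeR). Mcpt2, a protease of mucosal mast cells, was at 334, 484 and 78.4 CPM in leukemic_601, leukemic_606 and leukemic_921 and at 0.908, 360, 5.57 and 93.8 CPM in preleukemic_633, preleukemic_663, preleukemic_812 and preleukemic_837. Its log2 fold change was 1.38 (SE 1.53, adjusted p = 0.651, edgeR). Srgn, the core protein that holds granule proteases, was between 126 and 910 CPM in model 2 (log2 fold change 0.60, SE 0.54, adjusted p = 0.574, edgeR).

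Of 23 genes of IgE receptor signalling, 20 were tested in model 1, and 3 rose and 1 fell in TgSpi1FA-/- leukaemic against TgSpi1FA-/- preleukaemic cells, where 6.82% of all genes were called higher and 6.49% lower. Fyn, a kinase of the SRC family, had 0 reads in preleukemic_40, preleukemic_77 and preleukemic_224 and was at 47.7 CPM in leukemic_26, 37.5 in leukemic_28 and 27.6 in leukemic_39, which is at least 398-fold above 3 counts per library. Grap2, an adaptor protein, and Rasgrp4, an activator of RAS, had log2 fold changes of 7.83 (SE 1.59, adjusted p = 0.0185, edgeR) and 3.89 (SE 0.82, adjusted p = 0.0202, edgeR). Fcgr2b, an inhibitory receptor, had -3.60 (SE 0.97, adjusted p = 0.0406, edgeR). Against TgSpi1FA+/+ preleukaemic cells, Fyn was the 1 gene of this list that was called (6.20, SE 1.33, adjusted p = 0.0388, edgeR), where 7.01% of all genes were called. There, Rasgrp4 was at 11.6 against 14.1 CPM (log2 fold change -0.29, SE 0.68, adjusted p = 0.825, edgeR) and Grap2 at 24.8 against 2.92 CPM (3.08, SE 1.12, adjusted p = 0.115, edgeR). Fcgr2b had -2.91 there (SE 0.92, adjusted p = 0.0811, edgeR). In model 2, 19 were tested and edgeR called 0, where 5 had an unadjusted p under 0.05 (against 19.9% of all genes) and DESeq2 called 2 (against 3.96%). The 3 with the highest mean level (Grb2, Btk and Gab2) were between 54.0 and 709 CPM.

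Of 18 other haematopoietic transcription factors, 16 were tested in each model, and 1 rose and 4 fell in TgSpi1FA-/- leukaemic against TgSpi1FA-/- preleukaemic cells, where 6.82% of all genes were called higher and 6.49% lower. Ikzf2 rose (3.90, SE 0.73, adjusted p = 0.0148), and Ikzf1 (-1.20, SE 0.20, adjusted p = 0.0112), Stat5a (-1.32, SE 0.26, adjusted p = 0.0165), Lmo2 (-1.01, SE 0.24, adjusted p = 0.0295) and Zeb2 fell, all on the log2 scale with edgeR. The median over the list was -0.48, against -0.00 over all genes tested. In model 2, edgeR called 0, where 9 had an unadjusted p under 0.05 (against 19.9% of all genes) and DESeq2 called 2 (against 3.96%), and the median was -0.59 against -0.03 over all genes. Gata1, which was chosen as the counterpart of Gata2 after its values had been seen, had log2 fold changes of -0.33 (SE 0.16, adjusted p = 0.170, edgeR) in model 1 and -0.62 (SE 0.17, adjusted p = 0.162, edgeR) in model 2.

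Markers of other cell types that a culture could hold are shown by library in the map of marker lists. Basophil markers (Mcpt8, Prss34, Cd200r3, Il4 and Il13) summed to 65.2 to 96.4 CPM in leukaemic and 2.43 to 21.2 CPM in preleukaemic libraries of model 2, without overlap, beside the higher Ms4a2, Cpa3 and Cma1. Il4, a cytokine that mast cells make as well, was at 30.3, 44.9 and 58.9 CPM in leukemic_601, leukemic_606 and leukemic_921 and between 0.213 and 18.1 CPM in the preleukaemic mice (log2 fold change 2.10, SE 1.02, adjusted p = 0.296, edgeR). Cd200r3 was at 23.6, 45.3 and 1.65 CPM in the same leukaemic mice, the last being the lowest level of model 2. The preleukaemic mice had 3.05 CPM ± 1.53 (SD, n = 4), and the groups overlapped (log2 fold change 2.95, SE 0.92, adjusted p = 0.174, edgeR). Il13 did not overlap, at 6.71 CPM ± 3.83 (SD, n = 3) in leukaemic against 0.227 ± 0.213 (SD, n = 4) in preleukaemic mice. Its log2 fold change was 4.86 (SE 0.95, adjusted p = 0.162, edgeR). Mcpt8, a protease of basophils, which was chosen after its values had been seen, was at 5.18, 2.84 and 1.11 CPM in the 3 leukaemic mice, with 0 reads in 3 preleukaemic libraries and 4 reads in preleukemic_812, and Prss34 was at 0 in 6 of the 7 libraries. In model 2, 4 of the 5 basophil genes were tested and edgeR called 0, whereas 3 had an unadjusted p under 0.05 (against 19.9% of all genes) and DESeq2 called 3 higher (against 3.96% called either way). Mcpt8 passed the filter on low counts only with the leukaemic libraries, where it was high. These counts are thus in part set by the filter and are a description.

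In model 1, basophil markers summed to 0.730 to 10.4, 0.322 to 17.6 and 6.26 to 16.5 CPM in TgSpi1FA+/+ preleukaemic, TgSpi1FA-/- preleukaemic and TgSpi1FA-/- leukaemic libraries, and Mcpt8 had at most 1 read in any. Over the 17 libraries, neutrophil markers summed to at most 0.605 CPM, lymphocyte markers to at most 0.712 CPM, eosinophil markers to at most 6.95 CPM and macrophage markers to between 2.30 and 10.7 CPM. Megakaryocyte markers summed to 172 to 276 CPM in TgSpi1FA-/- leukaemic libraries against 45.1 to 60.2 CPM in TgSpi1FA-/- preleukaemic ones, without overlap, and to 60.6 to 199.997 CPM in TgSpi1FA+/+ preleukaemic libraries of model 1. In model 2 they summed to 32.0 to 87.0 CPM in preleukaemic and 11.2 to 117 CPM in leukaemic libraries. Of 5 megakaryocyte genes tested, 2 rose in TgSpi1FA-/- leukaemic against TgSpi1FA-/- preleukaemic cells, where 6.82% of all genes were called higher, beside the rises of Tph1, Ptgs1 and Fyn. Itga2b, a subunit of the platelet fibrinogen receptor, had a log2 fold change of 3.20 (SE 0.38, adjusted p = 0.00472, edgeR), and Vwf, which encodes von Willebrand factor, had 2.89 (SE 0.71, adjusted p = 0.0308, edgeR). Against TgSpi1FA+/+ preleukaemic cells, only Itga2b was called (2.13, SE 0.33, adjusted p = 0.0143, edgeR), where 3.55% of all genes were called higher. Vwf had -0.45 there (SE 0.61, adjusted p = 0.680, edgeR). The part of other cell types in the levels of the 10 genes was not tested.

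Erythroid markers summed to 2241 to 5176 CPM in TgSpi1FA-/- leukaemic libraries against 6495 to 6670 CPM in TgSpi1FA-/- preleukaemic ones, and to 3417 to 6626 CPM in leukaemic against 6387 to 10741 CPM in preleukaemic libraries of model 2. The TgSpi1FA-/- leukaemic sums include leukemic_39, which stood apart with 0.837 CPM of Hbb-bs. Of 13 erythroid markers tested, 3 fell and 0 rose in TgSpi1FA-/- leukaemic against TgSpi1FA-/- preleukaemic cells, where 6.49% of all genes were called lower, and the median log2 fold change was -0.80 against -0.00 over all genes. They were Ermap (-2.19, SE 0.22, adjusted p = 0.00241, edgeR), Klf1, an erythroid transcription factor (-1.27, SE 0.18, adjusted p = 0.00626, edgeR), and the globin gene Hbb-bt (-5.94, SE 1.38, adjusted p = 0.0265, edgeR). All 3 were still called without leukemic_39, at -1.99, -1.06 and -5.34. In model 2, edgeR called 0 of 13, where 5 had an unadjusted p under 0.05 (against 19.9% of all genes) and DESeq2 called 4 lower (against 3.96% called either way), and the median was -1.01 against -0.03 over all genes.

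**Figure D4:**
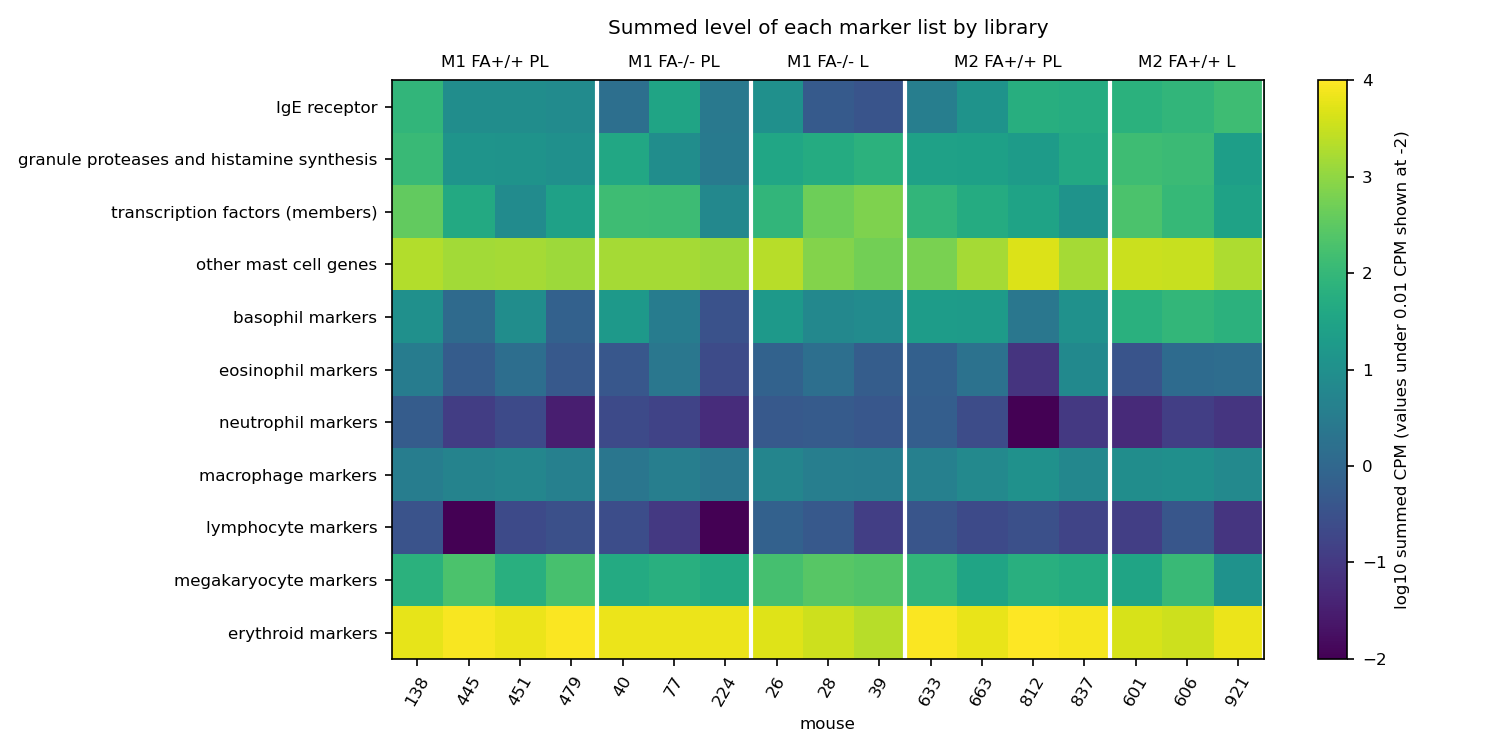
Summed CPM of each marker list (from top to bottom) in the 17 libraries (columns, named by the number of the mouse and grouped by model, genotype and stage), on a log10 colour scale. Basophil markers lie between 65.2 and 96.4 CPM in the 3 leukaemic libraries of model 2 and at 21.2 CPM or less in the other libraries, and neutrophil and lymphocyte markers stay under 1 CPM throughout.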

How the data were processed

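RNA-seq was analysed for 17 mice, 1 library each. The authors deposited read counts for each Ensembl gene, which are whole numbers and not normalized. The submitters' notes name bcl2fastq 2.17.1.14, STAR 2.5.3a, HTSeq 0.6.1p1 and mm10 (GRCm38). The library kit keeps the strand, and the strand setting of counting is not given in the sources used here. The members and lists were chosen with earlier results of these data known.

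Groups came from the sample titles. Each model was filtered (filterByExpr), scaled (TMM) and fitted with glmQLFit and glmQLFTest of edgeR 4.0.16 (R 4.3.3), with Benjamini-Hochberg adjustment over all genes tested, and the interaction over the genes shared by both tables. A call needed an adjusted p under 0.05 and a change of 1.5-fold or more. Genes of any list can pass the filter only through the group where they are high. Counts and medians over tested genes of a list are thus in part set by the filter. Exact permutation tests (scipy 1.17.1) were two-sided, on log2(CPM + 0.5). P-values measure the spread between mice, with 1 culture each. A floor of 3 counts was used, and it covers counting error only. Named genes were the 10 members, Kit, up to 4 called genes of each other list per comparison (smallest adjusted p) or, without a call, up to 3 of the highest mean CPM, and the 3 genes nearest to each of 4 members. Of 137 listed genes, 132 were found. Gene positions came from GENCODE M21 and upstream windows from RefSeq (GRCm38.p6). Alternatives were DESeq2 1.42.0 (size factors, Wald test), no filter, only the compared groups, preleukemic_445 and preleukemic_479 as 1 replicate, the second table and leaving out each mouse. The fits were tested on simulated counts.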

Additional observations from a re-analysis of the deposited data

Results flagged for a closer look

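Mouse preleukemic_138 stood apart from the other TgSpi1FA+/+ preleukaemic mice of model 1 for 4 of the 10 genes. Its Ms4a2 was 87.3 CPM, its Hdc was 115 CPM and its Gata2 was 365 CPM, each far above the other 3 mice, and its Mitf was 0 CPM, far below them. The gap to the nearest mouse, in CPM without logs, exceeded 0.829 of the range of the group, which is the limit of Dixon's test for 4 samples. Of 17 such groups checked, 4 passed this limit, where chance gives about 1 in 20 for independent samples with a normal spread. In CPM without logs a single high value weighs more, and the gaps on the log scale were not tested. The 4 are genes of 1 mouse and so are not independent. Besides, preleukemic_445 and preleukemic_479 among the other 3 mice were near alike, so that this rate does not hold here. In the second table, preleukemic_138 had 20.4 CPM of Ms4a2, near preleukemic_451, and 14.8 CPM of Hdc, below preleukemic_451, but it kept the highest Gata2 (196 CPM) and the lowest Mitf (0 CPM) of the group.

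The leukaemic change of Ms4a2 differed between the models in the test of the difference itself (-10.01 on the log2 scale, model 1 minus model 2, adjusted p = 0.0369, edgeR). The call was lost when most single mice were left out (adjusted p up to 0.0967, edgeR). The change within model 1 was -5.05 and was -2.12 without preleukemic_77. All 3 leukaemic libraries lay below the preleukaemic ones in model 1 and above them in model 2. Model, Fanca genotype of the leukaemic mice, strain, library protocol and the transfusions cannot be told apart in this test. The Kit and Nras mutations of the leukaemic cells were not part of it.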

How the results depend on the processing

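With DESeq2's Wald test, 2 members were called in model 2, against 0 with edgeR. With a mouse left out, the number of members called in the interaction was 0 to 1, and it was 0 in the comparisons within a model. With a mouse left out, which for this count was an alternative chosen after seeing the data, the number of members without overlap was 3 to 7 for TgSpi1FA-/- leukaemic against preleukaemic cells, 0 to 2 between the preleukaemic groups, 1 to 4 for TgSpi1FA-/- leukaemic against TgSpi1FA+/+ preleukaemic cells and 4 to 8 in model 2. Among the log2 fold changes, 2 turned in sign with the second table, Cpa3 (1.99) and Mitf (0.75). For TgSpi1FA-/- leukaemic against preleukaemic cells, the range with a mouse left out crossed 0 for Fcer1a (-5.03 to 1.41), Cpa3 (-0.72 to 3.39) and Mitf (-1.34 to 0.41). Between the preleukaemic groups of model 1 it crossed 0 for Ms4a2 (-4.90 to 1.77), Fcer1a (-2.06 to 0.63), Hdc (-2.74 to 0.60), Gata2 (-0.74 to 1.85) and Mitf (-1.05 to 0.69). It crossed 0 for Fcer1a in model 2 (-0.060 to 0.79), and in the interaction for Fcer1a (-5.38 to 1.06), Cma1 (-0.21 to 1.16) and Hdc (-0.16 to 1.93). The cause was not tested. In model 2, Ms4a2 (4.62 to 5.68), Cpa3 (4.13 to 6.06) and Cma1 (3.72 to 4.65) kept their direction with each mouse left out. No paired analysis was possible because the groups share no mouse number. Counts limit Fcer1g, Tpsb2 and, in model 1, Cma1 and Mcpt4.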

Other observations

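For 4 of the members, the genes with the most similar levels were looked for among 12091 genes over the 17 libraries, by the mean absolute difference of log2 CPM after each gene was centred within its model. The libraries share depth, model and stage, so these values are a description. Nearest to Cpa3 were Rgs2 (1.35), Cyp11a1 (1.49) and Tarm1 (1.49), where the mean deviation of Cpa3 itself was 2.15. Nearest to Ms4a2 were Tarm1 (1.51), Gucy2g (1.63) and Decr1 (1.71), against 2.27 for Ms4a2 itself. Tarm1 was thus among the nearest 3 of both. Nearest to Gata2 were Gask1b (0.75), Adgrl1 (0.75) and Pea15a (0.80), against 1.64 for Gata2 itself. Nearest to Mitf were the gene models Gm7045 (0.83), Gm5141 (0.88) and Gm10416 (0.93), against 1.51 for Mitf itself.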
